A study of Mus musculus with 9 samples.

Results

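PPARγ ChIP-sequencing peaks at the Period genes Per1, Per2 and Per3 were followed over the day in interscapular brown adipose tissue (iBAT) of the mouse. The peaks were those whose midpoint, in mm10, lay within a window around each gene, on chromosome 11 for Per1, chromosome 1 for Per2 and chromosome 4 for Per3. Of the 66066 peaks in the count table, 17 met this rule, with 8 in the Per1 window, 7 in the Per2 window and 2 in the Per3 window. The rule rested on position and used no measured value, but the genes were chosen with earlier results of these data known. The nearest curated RefSeq start site belonged to a Period gene for 7 of the 17 peaks (1 of Per1, 5 of Per2 and 1 of Per3), and to the neighbours Vamp2, Hes7, Aloxe3, Ilkap, Hes6 or Vamp3 for the other 10.

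The study collected iBAT from male C57BL/6J mice, 10 weeks old, fed chow and kept under a light:dark cycle of equal phases. The mice were housed below the thermoneutral zone, at a temperature that the paper calls mild cold. The study asked whether chromatin binding of PPARγ oscillates. Tissue was taken at 8 Zeitgeber times, every 3 h from ZT0 (lights on) to ZT21, with ZT12 as lights off. Tissue of several mice was pooled at each time, so that each time point was 1 library of a pool and no time point had a replicate. All 8 libraries shared strain, sex, age, diet, housing temperature and antibody. Time of collection cannot be told apart from the pool of mice taken at that time.

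The PER proteins are the inhibitory arm of the circadian clock: together with the cryptochromes they repress the activator pair CLOCK and BMAL1, which drives the Per genes through E-boxes. D-box factors such as DBP, TEF and HLF bind the Per promoters as well. PPARγ is the nuclear receptor that maintains adipocyte identity, and it binds DNA with RXR at direct repeats of a hexamer with 1 base between them, named DR1.

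Per1 lies on the plus strand at chr11:69098949-69109960 and has 23 exons, Per2 lies on the minus strand at chr1:91415982-91459328 and has 23 exons, and Per3 lies on the minus strand at chr4:151003655-151044665 and has 21 exons, in the curated RefSeq transcripts of GRCm38. Each had a peak over its start site. The Per1 peak, at chr11:69094203-69100328, was 6125 bases wide, a width at the 99.4th percentile of all peaks, and covered both curated Per1 start sites. The Per2 peak, at chr1:91455377-91459959, covered the start site and part of intron 1, and the Per3 peak, at chr4:151042845-151045363, did the same at its gene. Per2 had 4 more peaks within the gene: in intron 4 at chr1:91445906-91447234, in intron 5 at chr1:91444743-91445613, in intron 6 at chr1:91442417-91443220 and in intron 9 at chr1:91435312-91438252. Peaks are named here by these features or by the distance of their midpoint from the Period start site.

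Predicted RefSeq genes add opposite-strand start sites at a pair of these peaks. The long noncoding RNA Gm35591 starts at base 91443003 of chromosome 1, inside the intron 6 peak, and runs on the plus strand through the Per2 introns to base 91457770. Gm38529 starts at base 151044853 of chromosome 4, inside the Per3 start-site peak, and runs away from Per3. ChIP reads carry no transcript strand, so binding at these places cannot be divided between a gene and its opposite-strand partner.

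Sequences are shown from the Per2 peaks called by both tests described below, the start-site and intron 6 peaks, and from the promoters. In the Per2 start-site peak, the closest DR1 match lay at chr1:91456900-91456912 on the minus strand, 2416 bases into the gene, and had 1 mismatch to the repeat of AGGTCA. Both hexamers are in capitals, with 8 bases on each side:
Per2 intron 1, DR1: ggtcctcaAGGTCAaAGGTCTggacttct
An E-prime box, the E-box variant CACGTT, stood 9 bases after the Per2 start site on the minus strand, at chr1:91459314-91459319, and a D-box at chr1:91459442-91459449, at base -121 from the start site. The peak also held, not shown here, a D-box at base 226, an E-prime box at 1561, an E-box at 2066 and a DR1 match with 2 mismatches at 2222. Elements are in capitals:
Per2 start site, E-prime box: cgcgcggtCACGTTttccacta
Per2 start site, D-box: tgtgcgtcTTATGTAAagagagcg
The intron 6 peak of Per2 held an E-box (CACGTG) at chr1:91443060-91443065 and a D-box at chr1:91442624-91442631 on the minus strand, and no DR1 match with up to 2 mismatches. The E-box lay within the predicted Gm35591 gene, near its start:
Per2 intron 6, E-box: acttggtgCACGTGggtaagac
Per2 intron 6, D-box: tgtgaccaTTATGTAActccacag
The central 300 bases of that peak, chr1:91442669-91442968 on the plus strand, held none of the elements searched:
Per2 intron 6, centre: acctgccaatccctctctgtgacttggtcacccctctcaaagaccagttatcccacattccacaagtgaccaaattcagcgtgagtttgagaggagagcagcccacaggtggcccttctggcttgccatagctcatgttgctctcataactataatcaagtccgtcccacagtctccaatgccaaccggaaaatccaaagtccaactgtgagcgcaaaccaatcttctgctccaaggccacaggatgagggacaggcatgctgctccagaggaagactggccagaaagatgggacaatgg

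The promoter tables of RefSeq (GRCm38.p6), which run from 250 bases before to 50 bases after a start site, matched 2 start sites of Per1 and 1 of Per3. The first Per1 promoter, chr11:69098699-69098998 on the plus strand, held 1 E-box, at base -166 from the start site, here in capitals:
Per1 promoter: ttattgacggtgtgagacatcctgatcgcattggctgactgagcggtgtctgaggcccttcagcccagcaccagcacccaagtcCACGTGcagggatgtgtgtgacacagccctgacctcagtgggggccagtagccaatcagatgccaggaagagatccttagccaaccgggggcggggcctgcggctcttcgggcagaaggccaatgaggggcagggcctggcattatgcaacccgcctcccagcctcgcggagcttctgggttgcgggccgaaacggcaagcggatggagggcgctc
The Per3 promoter, chr4:151044616-151044915 on the minus strand, held 2 D-boxes, at bases -205 and -158, in capitals:
Per3 promoter: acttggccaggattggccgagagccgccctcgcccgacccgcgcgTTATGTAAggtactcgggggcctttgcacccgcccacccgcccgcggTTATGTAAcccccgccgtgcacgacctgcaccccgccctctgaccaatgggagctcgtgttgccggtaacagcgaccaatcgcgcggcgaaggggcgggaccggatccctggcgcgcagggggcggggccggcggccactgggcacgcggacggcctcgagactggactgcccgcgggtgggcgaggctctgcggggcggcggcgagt
Over all 32851 promoters of this length, 7.15% held the E-box CACGTG and 1.06% held a D-box (TTATGTAA or TTACGTAA), on either strand. The second Per1 promoter held neither. The Per1 start-site peak as a whole held 5 E-boxes, 4 of them upstream of the promoter window, and no DR1 match, and the Per3 start-site peak held 3 D-boxes and 1 DR1 match with 2 mismatches. These whole-peak counts grow with width, which was 6125 bases at Per1, and no share over all whole peaks was computed to set beside them.

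The central 300 bases of the 17 peaks were searched for these elements. The shares over all peaks were low, so few matches or none are to be looked for among 17 peaks. A DR1 with up to 2 mismatches was found in the centre of 0 of 17 peaks, beside 9.68% of the 66059 peaks searched, an E-box in 0 beside 5.55%, a D-box in 0 beside 2.35%, the ROR element ANTAGGTCA in 0 beside 1.40%, and the E-prime box in 1, the Per2 start-site peak, beside 4.67%. That central E-prime box lay at chr1:91457762-91457767, 1561 bases into the gene, and is not the one shown at the start site. A match is a run of letters and no measure of binding, and the centre of a merged peak need not be its summit.

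Reads in peaks numbered between 29572225 and 34264812 per library. Peaks nearest to the brown adipocyte genes Ucp1 and Cidea were among the strong ones, with mean normalized counts of up to 10490.2 and 10007, whereas of 6 genes of other cells, Ckm of muscle, Cd3e of T cells and Adgre1 of macrophages had 0 peaks, Ptprc of leukocytes and Alb of hepatocytes had 1 each (mean normalized counts of 58.2 and 537) and Pecam1 of endothelium had 5 (up to 1338). Normalized counts are reads divided by library totals and TMM factors and scaled back to the median total. The share of reads in the strongest 10% of peaks was 46.7% to 48.0% at ZT3, ZT6, ZT9 and ZT12 and 44.2% to 45.7% at ZT15, ZT18, ZT21 and ZT0. Intervals in parentheses are 95% Wilson intervals and cover counting error only, not the spread between mice or between immunoprecipitations.

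Binding at the 3 Period start sites was lowest at ZT21 (Per1 and Per3) or ZT3 (Per2) and highest at ZT12 (Per1 and Per2) or ZT9 (Per3). By mean normalized count per kb of peak, the order was Per1 (828), Per2 (655) and Per3 (538), and the intron 9 peak of Per2 stood above all of them (866). The other Per2 peaks had 546 in intron 4, 309 in intron 6 and 257 in intron 5.

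**Figure D1:**
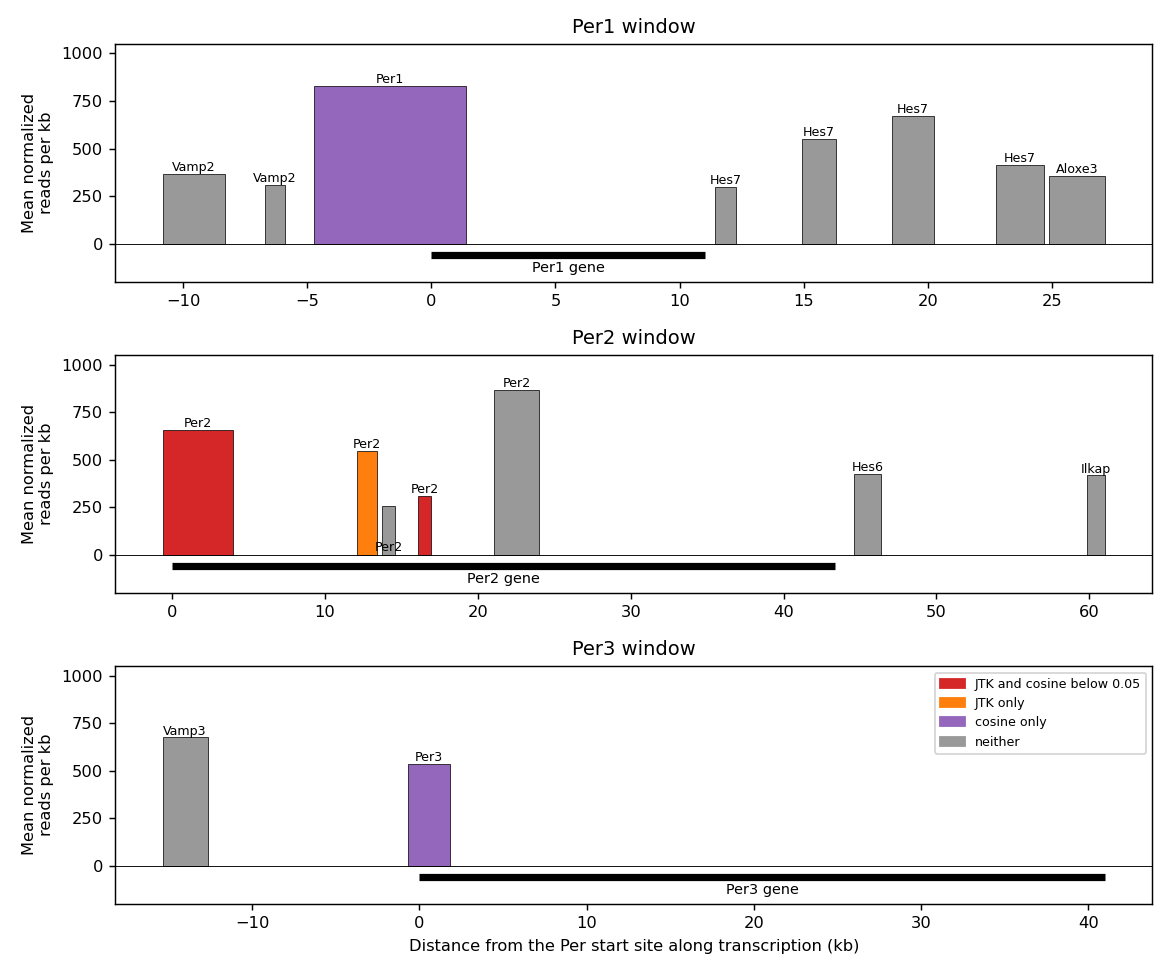
Mean normalized reads per kb over the 8 libraries (bar height) of the 17 peaks against distance in kb from the Period start site along transcription, drawn at true width, one panel per window; each bar carries the gene of its nearest curated start site, and the black line is the gene body. Coloured bars passed JTK-cycle, the cosine test or both, and grey bars neither.

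Oscillation was tested with JTK-cycle, a rank test of the time series against reference curves of 21 h and 24 h with an exact null distribution, and called at an adjusted P under 0.05. LAG is the time of the maximum of the best reference curve. By this test 3 of the 17 peaks oscillated, and 11.6% of all peaks did. A 24-h cosine fitted to the counts with edgeR's quasi-likelihood test, adjusted over all peaks by the Benjamini-Hochberg method, called 4 of 17, beside 13.4% of all peaks. The tests shared 2 peaks. Either test called 5 of 17, beside 18.3% of all peaks. These were 5 of the 7 peaks nearest to a Period gene and 0 of the 10 nearest to another gene, a difference that was not tested. This split moved with the setting. With a 24-h period only, JTK-cycle also called the Hes6 peak and the Per1 neighbours at -6.3 kb and +11.8 kb (adjusted P 0.0440 each). After a further Benjamini-Hochberg adjustment of the JTK-cycle values over all peaks, 0 of 66066 had a q under 0.05 and the smallest q was 0.0968, so that no JTK-cycle call among the 17 stood at that level.

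The ranges over the day were close to those of other peaks on fitted measures and narrower in raw extremes. The ratio of the highest to the lowest time point was 1.18 to 2.19 with a median of 1.29, beside a median of 1.52 over all peaks. Counting error widens this ratio more at weak peaks, and the weakest of the 17 stood at the 50.1st percentile of mean count. Neither the ratio nor the fitted measures that follow were compared with those of peaks of like strength. The median of the fitted cosine fold was 1.26, beside 1.27 over all peaks, and that of the relative amplitude 9.48%, beside 10.5%. For 16 of the 17 the Wilson intervals of the highest and the lowest time point did not overlap, which was also so for 83.9% of all peaks and for 92.5% of the 32962 peaks at least as strong as the weakest of the 17. The exception was the peak over the start of Ilkap.

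At the Per1 start site, the normalized counts at the 8 times from ZT0 to ZT21 were 4638, 5027, 5828, 5923, 6143, 4272, 4474 and 4257. Counts rose through the light phase and fell by 30.5% from ZT12 to ZT15, the largest step between neighbouring times. In order of level, the intervals of ZT21, ZT15, ZT18 and ZT0 overlapped from neighbour to neighbour, ZT3 stood apart from both sides, and ZT6, ZT9 and ZT12 overlapped again. The highest value (5989.7 to 6300.2) was 1.44 times the lowest (4129 to 4388). JTK-cycle gave an adjusted P of 0.212, whereas the cosine test gave an adjusted P of 0.00763 by edgeR, with a fitted maximum at ZT8.27 and a fitted 1.44-fold difference from maximum to minimum.

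The 4 libraries in which Per1 was highest were also the 4 in which the strongest 10% of peaks took the largest share of reads. The Per1 peak stood at the 99.6th percentile of mean count. After cyclic loess normalization, which evens out differences between libraries that depend on how strong a peak is, its range was 1.31-fold, with 4501 at ZT21 and 5910.2 at ZT12. JTK-cycle then passed the threshold (adjusted P 0.0260, LAG 12 h), and the fitted cosine maximum moved from ZT8.27 to ZT10.3 (limma adjusted P 0.0479). Direction and time of the extremes held under either normalization, while the size of the change and the JTK-cycle call depended on it.

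At the Per2 start site, the 8 values from ZT0 to ZT21 were 2702, 2440.0, 3057, 3359, 3728, 3172, 2972 and 2585. Values rose in steps from ZT3 to ZT12 and fell again more slowly, and the ZT12 interval (3609 to 3851) lay above that of every other time. The ratio of highest to lowest was 1.53. JTK-cycle gave an adjusted P of 0.0260 with a LAG of 13.5 h, and edgeR's cosine an adjusted P of 0.00842 with a maximum at ZT11.8 and a 1.41-fold difference. Without the ZT12 library the JTK-cycle adjusted P was 0.161, and the cosine adjusted P was 0.0497. Cyclic loess left the ratio at 1.56, and the JTK-cycle adjusted P was then 0.000744, the smallest that 8 libraries allow.

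The largest change in the 3 windows was at the intron 6 peak of Per2, 16.5 kb into the gene. In time order from ZT0, its normalized counts were 169.5, 168, 163, 263, 352, 358, 303 and 208. ZT0, ZT3 and ZT6 had overlapping intervals, and the count then rose by 61.1% from ZT6 to ZT9 and by 34.0% from ZT9 to ZT12. The highest value (323 to 396) was 2.19 times the lowest (140.4 to 189.8). JTK-cycle gave an adjusted P of 0.0260 with a LAG of 15 h and a relative amplitude of 39.4%, beside a median of 17.8% over all peaks called by that test. The cosine fit gave an adjusted P of 0.00093 by edgeR, a maximum at ZT14.3 and a 2.38-fold difference. The JTK-cycle adjusted P was 0.161 without any 1 of ZT9, ZT12, ZT15 or ZT18, and 0.0826 after cyclic loess, whereas the cosine call held without each library in turn, with adjusted P of at most 0.00626.

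The intron 4 peak, 12.8 kb into Per2, had normalized counts, in time order from ZT0, of 706, 556, 744, 795, 838, 751, 744 and 665. ZT3 alone stood apart below the rest, while neighbours in level from ZT21 up to ZT12 had overlapping intervals. JTK-cycle called it (adjusted P 0.00595, LAG 13.5 h) under every normalization tried and without each library in turn. The cosine test did not (edgeR adjusted P 0.136).

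The intron 5 and intron 9 peaks passed neither test. In intron 5 the counts from ZT0 to ZT21 were 210.4, 190.3, 199.96, 234, 296, 222, 231 and 207, with a JTK-cycle adjusted P of 0.212 and an edgeR cosine adjusted P of 0.197. In intron 9 they were 2364, 2341, 2789.7, 2679, 3019.9, 2334, 2425 and 2415, with adjusted P of 1 and 0.141 (edgeR). In each of these, and in the start-site and intron 4 peaks, ZT12 was the highest time, while the intron 6 peak was at ZT15 as high as at ZT12 within its intervals. Summed over its 5 peaks, Per2 had 5696 normalized counts at ZT3 and 8235 at ZT12, a ratio of 1.45.

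At the Per3 start site, the normalized counts from ZT0 onwards were 1269.5, 1210.5, 1543, 1684, 1550.3, 1268, 1212 and 1095. ZT6, ZT9 and ZT12 formed a plateau whose intervals lay above those of the other 5 times. The highest value was 1.54 times the lowest. JTK-cycle gave an adjusted P of 0.212, and edgeR's cosine an adjusted P of 0.0116 with a maximum at ZT9.07 and a 1.45-fold difference. Without the ZT9 library the cosine adjusted P was 0.0627, and without ZT0 the JTK-cycle adjusted P was 0.0417.

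**Figure D2:**
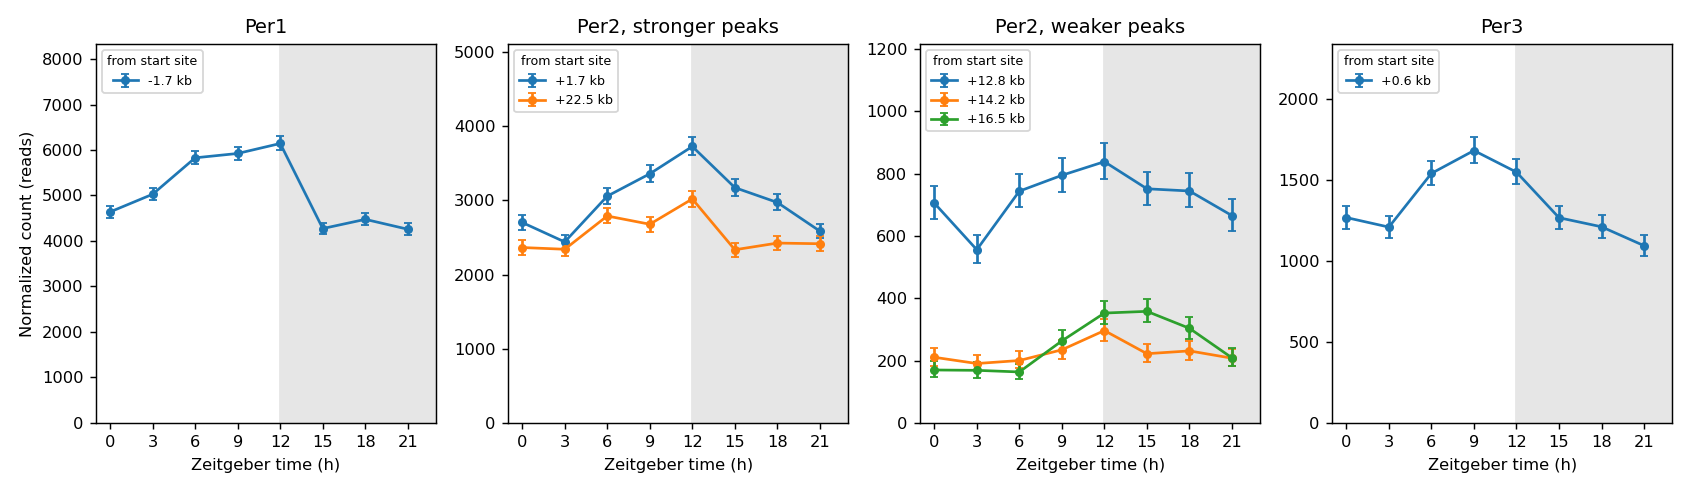
Normalized count (reads) against Zeitgeber time (h) for the 7 peaks nearest to a Period start site, with distance from that start site in the key; each point is 1 library of pooled tissue, bars are 95% Wilson intervals of counting error, axes start at 0 and the dark phase is grey. Per1 drops from 6143 to 4272 between ZT12 and ZT15, Per3 is highest at ZT9, and the Per2 peak at +16.5 kb rises from 163 at ZT6 to 358 at ZT15.

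The fitted times of the maximum were earlier at the Per1 and Per3 start sites than at the start-site and intron 6 peaks of Per2. In a least-squares fit of the cosine to log2 normalized counts, the maximum was at ZT8.21 ± 0.80 (SE) for the Per1 start site, ZT9.09 ± 0.69 for Per3, ZT11.85 ± 0.67 for the Per2 start site and ZT14.31 ± 0.33 for the Per2 intron 6 peak. Per1 and Per3 lay within their errors of each other, and their order depended on the normalization: after cyclic loess the limma cosine maximum was at ZT10.3 for Per1 and ZT9.81 for Per3, with LAG 12 h and 10.5 h, and Per3 was also highest at an earlier time point than Per1. The errors come from the departures of 8 single libraries from a cosine, and the differences in time between genes were not tested. The intron 4 and intron 5 peaks of Per2 had maxima at ZT12.65 ± 1.37 and ZT13.14 ± 1.37. The intron 9 peak of Per2, which passed neither test, had its maximum at ZT9.71 ± 1.51. That lay within the errors of Per1 and Per3, so the later time did not hold at every Per2 peak.

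**Figure D3:**
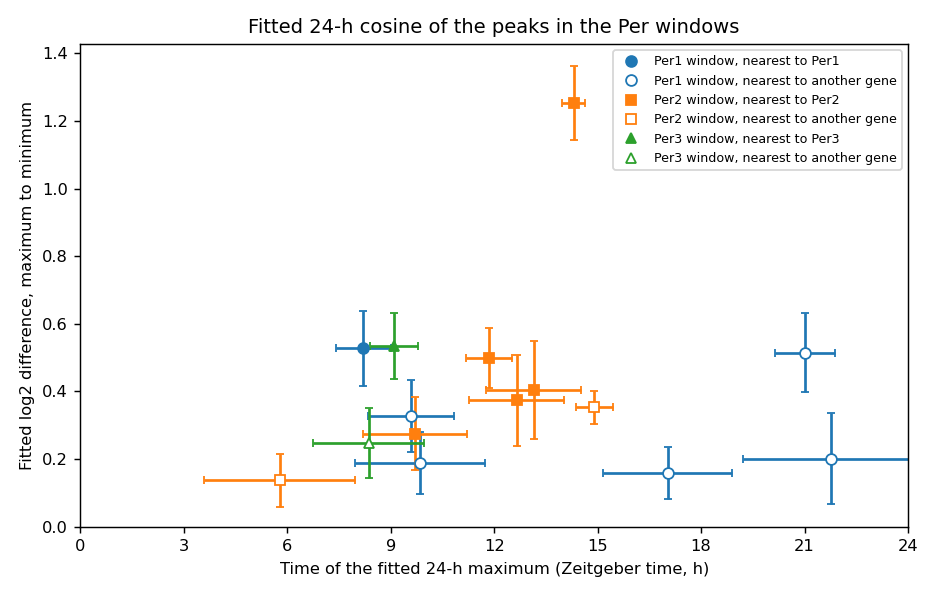
Fitted log2 difference from maximum to minimum against the time of the fitted 24-h maximum (h) for 15 of the 17 peaks, with standard errors of the least-squares fit; 2 peaks whose time had an error above 3 h are left out. The intron 6 peak of Per2 stands alone at a log2 difference of 1.25, and the start-site peaks of Per1, Per2 and Per3 lie between 0.50 and 0.54.

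Ratios between peaks of a window within 1 library do not depend on the scaling of that library by a common factor. Differences between libraries that depend on how strong a peak is remain in them. Each peak was set against the strongest peak of its window and the log2 ratio was tested by JTK-cycle, for 14 pairs in all. The intron 6 peak of Per2 was 5.34% of the start-site peak at ZT6 and 11.3% at ZT15, a 2.11-fold range, with an adjusted P of 0.0260 and a LAG of 16.5 h. The Per3 start site was 66.3% of the Vamp3 peak at ZT21 and 83.9% at ZT9 (adjusted P 0.0260, LAG 9 h). The Ilkap peak was 13.7% of the Per2 start site at ZT12 and 22.2% at ZT3 (adjusted P 0.00595, LAG 3 h). Its own normalized counts had a ratio of highest to lowest of 1.18. The Per2 start site, its reference, had a ratio of 1.53, lowest at ZT3 and highest at ZT12. These 3 pairs were under 0.05 before adjustment over pairs and 0 of 14 after it, where the Benjamini-Hochberg adjusted values were 0.122, 0.122 and 0.0833. Without ZT18 or without ZT21, 1 pair was under 0.05.

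The intron 4 and intron 5 peaks kept a narrower ratio to the Per2 start site, with ranges of 1.16-fold and 1.23-fold. Their JTK-cycle adjusted P values were 0.212 and 1. The intron 9 peak was 73.6% of the start-site peak at ZT15 and 95.9% at ZT3 (adjusted P 0.0826). The pairs in a window share their reference peak, so they are not independent.

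**Figure D4:**
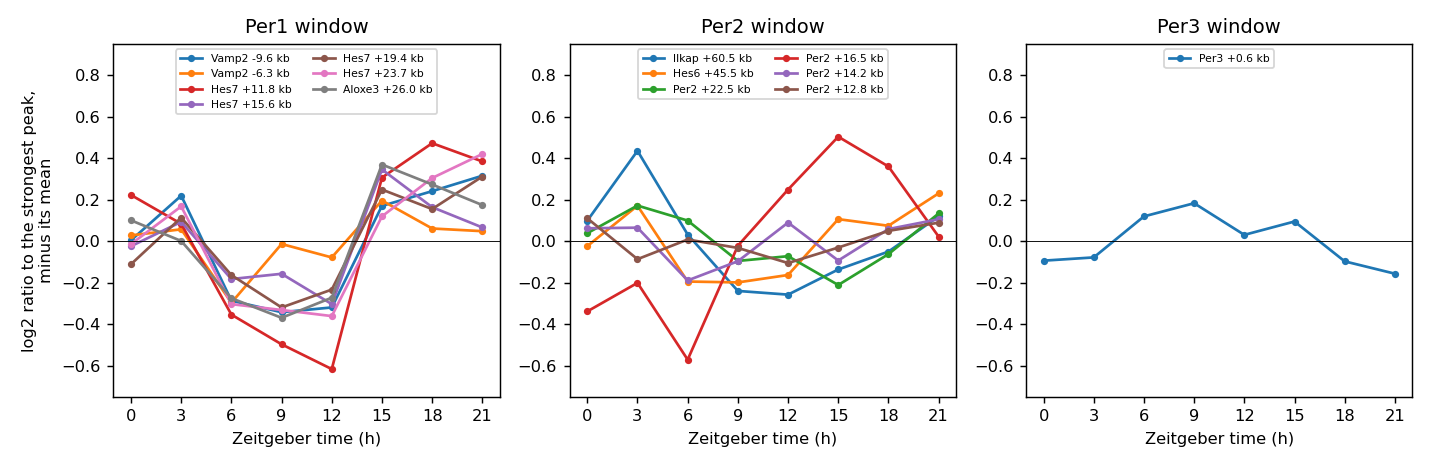
log2 ratio of each peak to the strongest peak of its window in the same library, minus its mean, against Zeitgeber time (h), one panel per window and one line per peak. In the Per2 window the +16.5 kb peak moves apart from the other lines. In the Per1 window all 7 ratios share the Per1 start-site peak as reference. They are below their mean at ZT6, ZT9 and ZT12 and above it at ZT15, ZT18, ZT21 and, for the +26.0 kb peak barely, ZT3.

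No neighbour of Per1 in its window passed either test in the main setting. With a 24-h period only, JTK-cycle called those at -6.3 kb and +11.8 kb (adjusted P 0.0440 each). The peak at +11.8 kb, chr11:69110370-69111222, began 410 bases past the end of Per1 and held 2 tRNA genes, n-TTagt5 and n-TScga3. Its normalized counts, again from ZT0 to ZT21, were 271, 266, 228, 209.8, 200.2, 264, 311 and 278, so it was lowest at the time at which Per1 was highest. It passed neither test (JTK-cycle adjusted P 0.0826, LAG 22.5 h, and edgeR cosine adjusted P 0.0847), and with library totals alone the cosine adjusted P was 0.0498. Its ratio to the Per1 peak was 3.26% at ZT12 and 6.94% at ZT18, with an adjusted P of 0.212.

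The other 6 Per1 neighbours had ratios of highest to lowest between 1.20 and 1.34. The peak at -9.6 kb, over the start of Vamp2, which codes for a vesicle fusion protein, had 857, 1078, 880.0, 861, 907, 885, 974 and 976 from ZT0 to ZT21. Its highest time was ZT3, and JTK-cycle gave an adjusted P of 1. The peak at -6.3 kb, between Vamp2 and Per1, had 234, 259, 235, 290.5, 288, 242, 231 and 218. It was highest at ZT9 and ZT12, as at Per1, with a JTK-cycle adjusted P of 0.0826 and a LAG of 9 h.

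Downstream of Per1, the peak at +15.6 kb had 702, 825, 790.2, 817, 766, 835, 771 and 686 in time order, lowest at ZT21. The peak at +19.4 kb, before the curated start site of Hes7, a repressor of the segmentation clock, had 969, 1228, 1175, 1071, 1179.6, 1146, 1124 and 1192. In both, ZT3 was among the higher values and JTK-cycle gave an adjusted P of 1. The peak at +23.7 kb, in exon 4 of Hes7, had 716, 880.3, 736, 734, 746, 723, 861 and 888, with its higher values at ZT3, ZT18 and ZT21. The peak at +26.0 kb, before the curated start site of the epidermal lipoxygenase gene Aloxe3, had 798, 807, 773, 736, 816, 885, 868 and 770.4, highest at ZT15. Their JTK-cycle adjusted P values were 1 and 0.467. Of all 17 peaks, 4 overlapped tRNA genes, 7 genes in all, and each of the 4 lay downstream of Per1.

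In the Per2 window, the start-site peak of Hes6, a basic helix-loop-helix factor of the HES family, had 682, 705, 686, 751, 855, 877, 803 and 779 from ZT0 on. It was highest at ZT15 and ZT12, and JTK-cycle gave an adjusted P of 0.0826 (LAG 15 h) and the edgeR cosine 0.0757. With library totals alone the cosine adjusted P was 0.0371. The Ilkap peak, at the start of a phosphatase gene, had 474, 540.5, 512, 466, 511, 473, 470.0 and 459.8, and JTK-cycle gave an adjusted P of 1. In the Per3 window, the start-site peak of Vamp3, another vesicle fusion gene, had 1833, 1729, 1921, 2007, 2054, 1607, 1755 and 1652. It was stronger than that of Per3, with a mean of 1819.8 beside 1354, and its highest times were ZT12 and ZT9 (JTK-cycle adjusted P 1, edgeR cosine adjusted P 0.212).

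**Figure D5:**
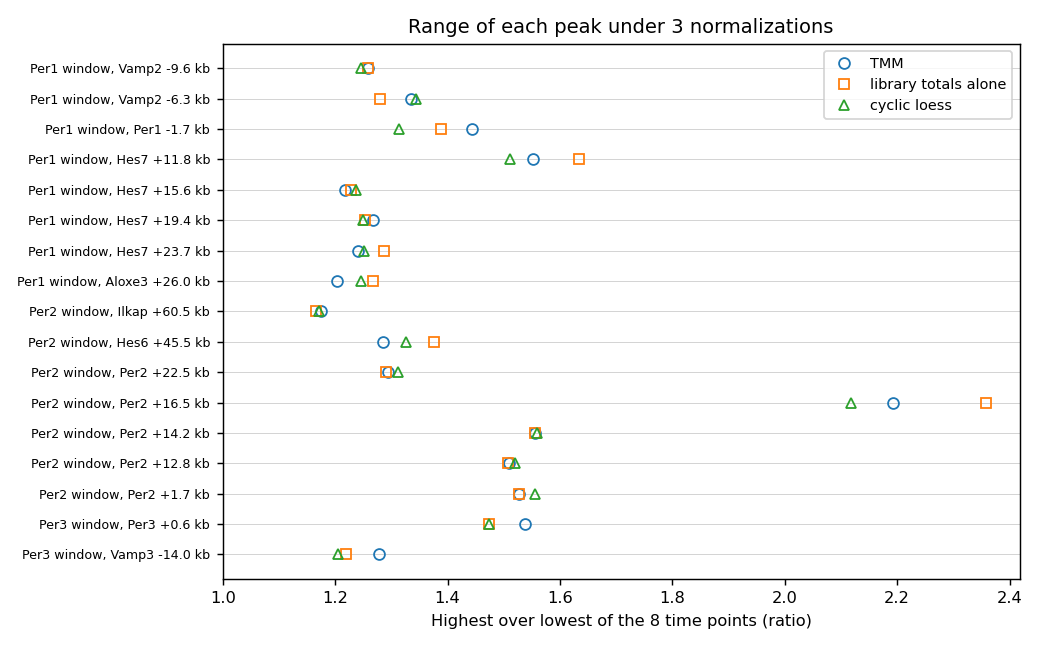
Ratio of the highest to the lowest of the 8 time points for each of the 17 peaks under TMM, library totals alone and cyclic loess. The Per2 peak at +16.5 kb is between 2.12 and 2.36 under all 3, and the Per1 start-site peak moves from 1.44 under TMM to 1.31 under cyclic loess.

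Other clock genes gave a frame for these values. A list of 25 further clock genes had 167 peaks by nearest start site, of which 49 (29.3%) were called by JTK-cycle and 68 (40.7%) by the cosine, and the median ratio of highest to lowest was 1.63. A peak called by JTK-cycle was found at 17 of the 25 genes, and at 29.5% of all 16702 genes with a peak, which differ in their number of peaks. Among genes with at least 3 peaks, 50% or more were called at Nr1d1, which codes for the repressor REV-ERBα (4 of 5, LAG 7.5 h), at the D-box factors Hlf (10 of 17, LAG 6 to 10.5 h) and Tef (3 of 5, LAG 9 to 12 h), at the cryptochrome Cry1 (3 of 6, LAG 19.5 h) and at Npas2, a partner of BMAL1 (2 of 3, LAG 0 h). Among these genes, the called Per2 peaks, with LAG 13.5 to 15 h, fell between the ranges of Tef and Cry1. Each called Per2 peak took its LAG from the 21-h reference curve. The periods behind the LAG values of the other genes are not given here, so this order is approximate. Called peaks of listed genes below that share also had LAG values within 13.5 to 15 h. Several peaks of the listed clock genes had wider ranges than the Period peaks, such as 3.29-fold at an Nr1d1 peak and 5.04-fold at an Npas2 peak.

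The peaks most like each start-site peak in time course were found among 52063 peaks by Pearson's r of log2 normalized counts over the 8 libraries, given as a description. For Per1 the highest r was at Gm8098 (0.992), followed by peaks nearest to Aig1, Lzts2, Cox20 and Crybg1. For Per2 it was at Tab2 (0.991), followed by Ces1d, a carboxylesterase gene (0.990), Rragc, Marveld1 and Snx16. For Per3 it was at Abcc4 (0.978), followed by H6pd, Slc25a31, Vegfa and Prickle3. All points share the same 8 libraries and their scaling.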

How the data were processed

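ChIP for PPARγ was sequenced from pooled iBAT at 8 time points. An input library of ZT12 had no column in the count table and was not analysed here. The authors mapped reads to mm10 with BWA 0.7.17, called peaks with MACS2 2.1.2, kept those found in most libraries and deposited raw read counts per peak from HTSeq 1.99.2; HOMER 4.11 and MultiQC are also in the submitters' processing notes. How duplicate reads were treated is not given in the sources used here.

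From the deposited counts, TMM factors (edgeR 4.0.16, R 4.3.3; 0.959 to 1.04) were computed on all 66066 peaks. JTK-cycle was written in Python 3.11.15 with periods of 21 and 24 h and Bonferroni adjustment over 15 combinations of period and phase. The cosine test had 5 residual degrees of freedom, which stand in for replicates because no time point has one. Both tests were tried on simulated data. Start sites came from curated RefSeq transcripts, and no peak ran past its chromosome in the GRCm38 genome used. Every peak in the windows was described. Other peaks were named only as the 5 with the highest r to each start-site peak (mean normalized count of at least 100) or as clock genes with at least 3 peaks, 50% or more of them called. Alternatives were library totals alone, DESeq2 1.42.0, cyclic loess with limma 3.58.1, a 24-h period, count filters, a threshold of 0.01 and leaving out each library. The members and the lists were chosen with earlier results of these data known.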

Additional observations from a re-analysis of the deposited data

How the results depend on the processing

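The 3 JTK-cycle calls among the 17 peaks became 6 with a period of 24 h only (15.0% of all peaks). Fewer combinations are adjusted for there, and the added calls were the Hes6 peak and the Per1 neighbours at -6.3 kb and +11.8 kb. At an adjusted P under 0.01, 1 of the 17 was called (4.66% of all peaks). With each library left out in turn the JTK-cycle calls numbered from 1 (without ZT12, 13.7% of all peaks) to 5 (without ZT0, 13.03%). The count stayed at 3 with library totals alone, DESeq2's size factors and cyclic loess, although with cyclic loess the Per1 start-site peak was called and the Per2 intron 6 peak was not. The cosine test called 4 peaks, between 3 and 6 under all alternatives, with 3 without ZT9 (8.49% of all peaks) or at 0.01 (3.40%) and 6 with library totals alone (13.5%), where the Hes6 peak and the peak past the end of Per1 were added. Over all peaks the cosine share with a library left out ran from 4.64% (without ZT18) to 16.96% (without ZT3). The ratio test had 3 pairs under 0.05, from 1 (without ZT18 or ZT21) to 4 with a library left out and 4 with 24 h only. With summed neighbours as reference the count was again 3, but of other peaks: Ilkap, Per3 and Vamp3 (JTK-cycle adjusted P 0.0260 each). The Per3 and Vamp3 values there are the same ratio inverted. The Per2 intron 6 peak was not under 0.05 with that reference (JTK-cycle adjusted P 0.0826). Searching whole peaks in place of the central 300 bases raised DR1 from 0 to 5 peaks, with no share over all whole peaks to set beside it. Fitted times of peaks that no test called could move far, as at +19.4 kb, from 10.7 h to 23.9 h without ZT0. With 7 libraries the attainable JTK-cycle adjusted P values step from 0.0417 to 0.161, so that a lost call there can be 1 step of rank. No paired analysis was possible because each time point has 1 library. One pool per time cannot separate time of day from the mice or the immunoprecipitation of that pool.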
